A study of Macaca mulatta with 6 samples.

Results

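Translation initiation and elongation factors are the proteins that bring the initiator tRNA, the mRNA and the ribosomal subunits together and then move the ribosome along the message. The transcripts described here were all rows of the count table whose symbol begins with EIF1 to EIF6 or with EEF1 or EEF2. Where a symbol had several rows, the one holding most counts over the 6 libraries was used. Membership follows the symbol alone, but this family was picked with earlier results of these data known. The members were 62 of the 32386 rows. They include the subunits of each factor together with the kinases, binding repressors and methyltransferases that carry the same symbols. Of the 62, 61 passed the filter on low counts. EIF4E1B, a form of the cap-binding protein, had 0 counts in all 6 libraries, where 3 counts would correspond to 0.137 to 0.443 CPM (a count scaled to the size of its library). LARP1 and TSC1, genes that most cells express, were also at 0 in all 6 libraries, so a 0 in this table does not show that a transcript was absent.

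RNA was measured in 6 granulocyte-macrophage colonies of rhesus macaque (Macaca mulatta). Of these, 3 were TET2 uniallelic (UA) colonies, with a predicted loss-of-function mutation of TET2 on 1 allele, and 3 were TET2 wild type (WT) colonies. TET2 encodes a dioxygenase that oxidises methylated cytosine in DNA, and loss of its function is common in clonal expansion of blood stem cells. Both groups came from mobilised CD34+ cells that had been treated with CRISPR/Cas9 and returned to the animal they came from, so the WT colonies had been through the same procedure. CD34+ cells were taken from the bone marrow 15 months after transplantation and grown for 14 days in semisolid medium, and picked colonies were genotyped from part of their cells. The labels describe each colony as grown from a single cell, and they do not give the number of animals or which colony came from which animal. The p-values below therefore measure the spread between these libraries, taken as separate colonies because the labels list them so.

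Initiation begins when eIF2, with GTP bound, carries the initiator tRNA to the small ribosomal subunit together with eIF1, eIF1A, eIF3 and eIF5. The eIF4F complex, made of the cap-binding protein eIF4E, the scaffold eIF4G and the helicase eIF4A, then loads the mRNA, the start codon is found by scanning, and eIF5B joins the large subunit. The eIF2B complex recharges eIF2 with GTP and is blocked when an eIF2 kinase phosphorylates the alpha subunit of eIF2. During elongation eEF1A delivers each aminoacyl-tRNA, the eEF1B subunits recharge eEF1A, and eEF2 moves the ribosome on by a codon.

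The libraries held 6334264 to 17684447 counts in UA and 10574104 to 25485143 in WT. TET2 itself had 238, 225 and 229 CPM in the UA colonies, against 79.3, 92.8 and 109 CPM in the WT colonies, and its log2 fold change was 1.30 (SE 0.16, adjusted p = 3.93e-05). This level does not check the labels, because the edited allele itself was not looked at. The UA libraries differed from each other less (chi-square per gene 4.29 to 5.21, where sampling alone gives 1) than the WT libraries did (12.1 for replicates 2 and 3, 79.0 and 82.4 for replicate 1 against either). PCR copies may be counted as reads, so a value above 1 does not show that libraries come from separate colonies. The UA libraries were counted as 3 because the labels list 3 colonies, and whether they are independent was not tested. The results are therefore given below also with the UA libraries summed to 1 sample, or without WT replicate 1. Marker genes of blood lineages differed between the groups as well. The summed level of 12 granulocyte-macrophage markers was 32197 to 33158 CPM in UA and 2932 to 3414 CPM in WT, with 9 called higher, 2 lower and 1 not called. Within that list MPO, the neutrophil peroxidase, averaged 16743 CPM in UA and 810.4 CPM in WT. CD14, a monocyte receptor, averaged 21.7 CPM in UA and 1147 CPM in WT, 53.0-fold lower, and SPI1, a myeloid transcription factor, was 2.79-fold lower in UA. Erythroid markers summed to 65 to 74.7 CPM in UA and 301 to 346 CPM in WT, with 2 called higher and 3 lower of 6 tested. Megakaryocyte markers summed to 826 to 847 CPM in UA and 432 to 479 CPM in WT, with 4 called higher and 1 lower of 9. Mast cell, basophil and eosinophil markers summed to 1563 to 1666 CPM in UA and 209 to 235 CPM in WT, with 6 called higher and 1 lower of 8, and IL5RA was at 0 in WT. Stromal and endothelial markers summed to 1227 to 1252 CPM in UA and 156 to 165 CPM in WT, with 9 called higher and 1 lower of 10. Lymphoid markers summed to 203 to 226 CPM in UA and 245 to 285 CPM in WT, with 4 called higher and 3 lower of 7, and CD3E was at 0 in WT. These differences move with the UA label and their part in the results was not tested. In bulk RNA of a colony, fewer cells of a type and less RNA per cell cannot be told apart.

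More translation factor transcripts were lower than higher in UA colonies. Of the 61 tested, 15 were higher (24.6%), 32 were lower (52.5%) and 14 were not called, by edgeR's quasi-likelihood F-test at a Benjamini-Hochberg adjusted p under 0.05 over all 13768 genes tested. Over all genes, 34.6% were called higher and 31.4% lower, 66% in either direction. With a log2 fold change beyond 1 in size, 5 members were higher (8.20%) and 25 lower (41.0%), against 27.4% and 21.4% of all genes. The higher members in both counts include EEF1A2, which passed the filter on low counts only through the UA libraries. Single genes are given below by their log2 fold change of UA over WT, with its standard error (SE) and adjusted p. The median log2 fold change was -0.45 over the members and 0.12 over all genes tested. All 3 UA libraries stood above all 3 WT libraries for 18 members (29.5%) and below them for 33 (54.1%), and the groups overlapped for 10. Over all genes these shares were 39.2% above and 34% below. Member transcripts made up 1.54% to 1.58% of all counts in UA and 1.59% to 1.60% in WT. After scaling of the libraries their summed level was 14771 to 14899 CPM in UA and 16070 to 18603 CPM in WT, so the groups did not overlap. The members' coefficient of variation had a median of 5.49% in UA and 16.7% in WT.

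**Figure D1:**
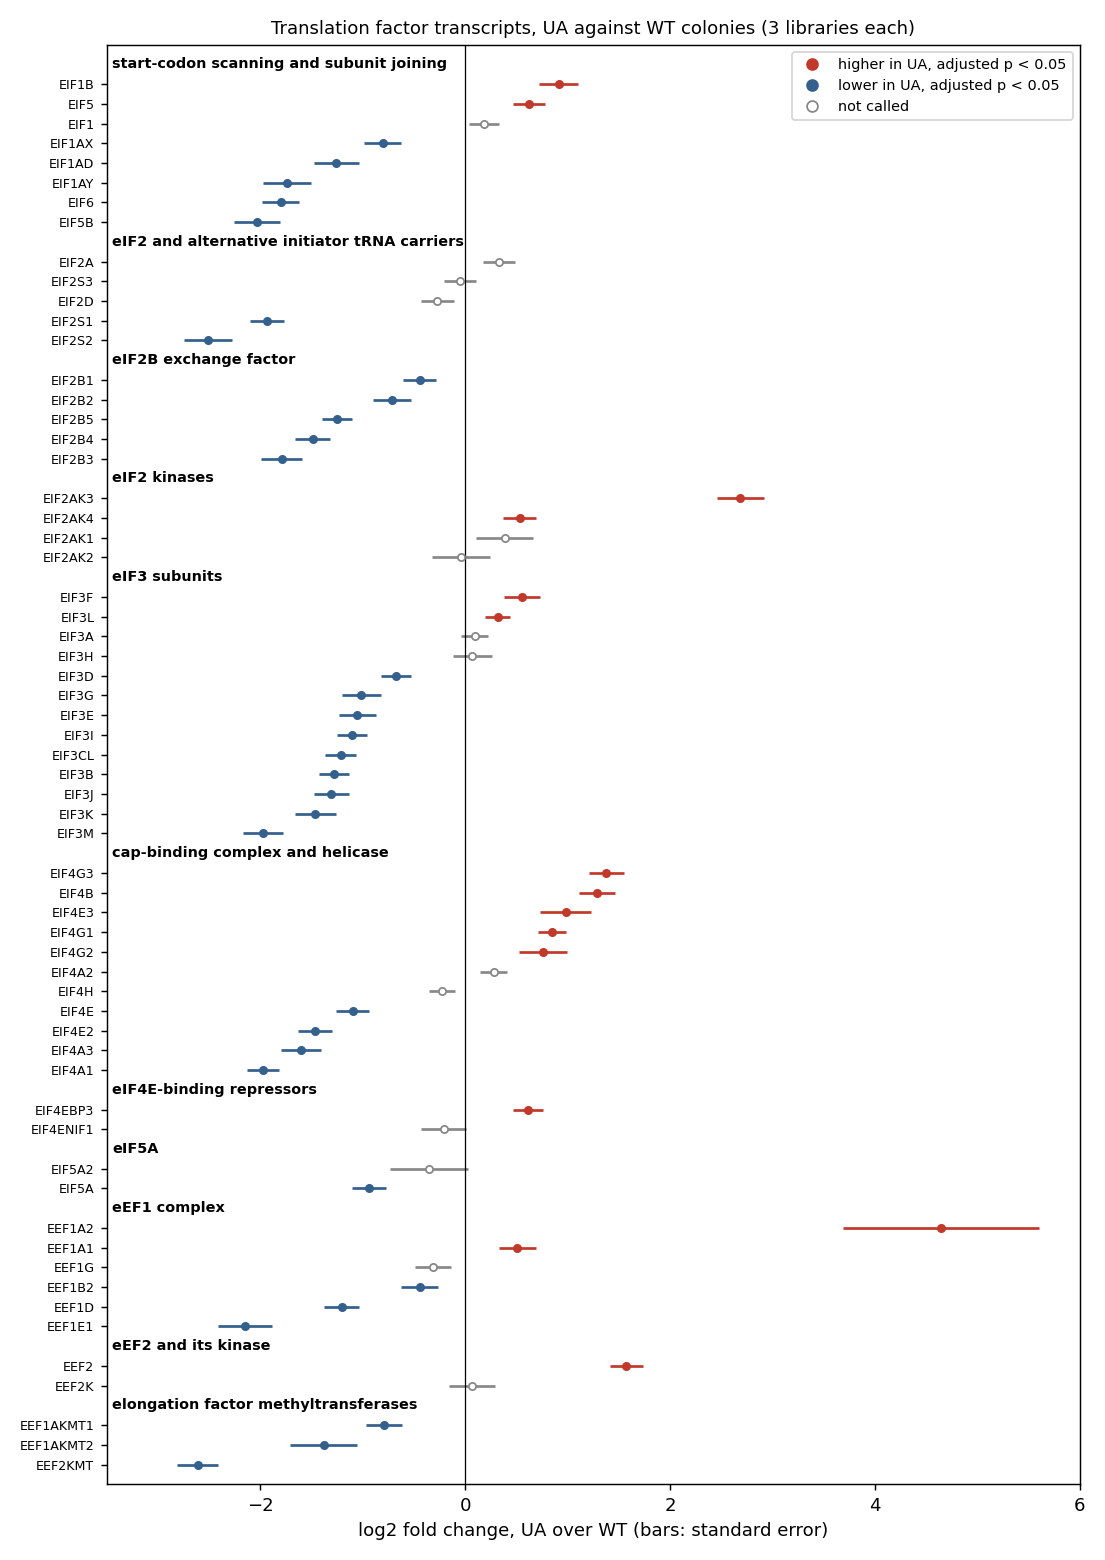
Change of each of the 61 tested members as log2 fold change of UA over WT (x axis), grouped by role (rows), with bars for the standard error; red points were called higher, blue points lower, and open points were not called. The eIF2B subunits and the methyltransferases all lie left of 0, while EIF2AK3 at 2.69 and EEF2 at 1.57 lie far to the right; the point of EEF1A2 rests on 3 WT counts.

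When the UA libraries were summed to 1 sample, 6 members were called higher and 24 lower of the 61 tested, where 18.6% of all genes were called higher and 14.9% lower (33.4% in either direction). In that fit the single UA sample is assumed to vary like the WT libraries. Of the called members, 17 lost their call there, and they are named with their groups below. Leaving out WT replicate 1 gave 19 higher and 35 lower, where 37.4% of all genes were called higher and 31.9% lower (69.2% in either direction).

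Among the eIF2 subunits, 2 of 3 were much lower in UA and the third was not, where 31.4% of all genes were called lower. EIF2S2, the beta subunit, had 94.8, 84.2 and 75.2 CPM in the UA colonies, against 677, 406 and 366 CPM in the WT colonies. Every UA colony lay below every WT colony, and the log2 fold change was -2.51 (SE 0.24, adjusted p = 6.71e-06), a level 5.70-fold lower. EIF2S1, the alpha subunit that the eIF2 kinases phosphorylate, had 101, 107 and 88.0 CPM in the UA colonies, against 432, 373 and 329.6 CPM in the WT colonies, again without overlap. Its log2 fold change was -1.94 (SE 0.16, adjusted p = 3.05e-06). EIF2S3, the gamma subunit that binds GTP and the initiator tRNA, had 56.7, 55.9 and 58.8 CPM in the UA colonies, against 54.5, 61.8 and 61.3 CPM in the WT colonies. The groups overlapped and the log2 fold change was -0.05 (SE 0.16, adjusted p = 0.789), and it was not called under any of the 17 alternatives. The ratio of EIF2S2 to EIF2S3 counts within a library was 1.67, 1.51 and 1.28 in the UA colonies, against 12.4, 6.58 and 5.98 in the WT colonies. Such a ratio depends on the lengths of both transcripts, which are the same in every library, so it is read between libraries only. This and the other ratios below were chosen with the values known and are descriptions without a test. The alternative carriers of initiator tRNA, EIF2A and EIF2D, had log2 fold changes of 0.33 and -0.27 and were not called (adjusted p = 0.0847 and 0.160). On the positions in the authors' deposited table, EIF2S2 (ENSMMUG00000018095) lies at chr10:30058414-30082831 and EIF2S1 (ENSMMUG00000021419) at chr7:129503304-129523511. That table does not name its build, and the submitters' notes name Mmul_8.0.1.

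All 5 subunits of eIF2B were lower in UA, with log2 fold changes of -1.79 to -0.45, where 31.4% of all genes were lower. EIF2B3, the gamma subunit of its catalytic part, had 43.2, 33.7 and 39.9 CPM in the UA colonies, against 171, 117 and 116 CPM in the WT colonies. The UA values were all below the WT values, and the log2 fold change was -1.79 (SE 0.20, adjusted p = 2.28e-05). EIF2B5, the epsilon subunit that carries the exchange activity, had 130.1, 141 and 125 CPM in the UA colonies, against 286, 312 and 349 CPM in the WT colonies, also without overlap. Its log2 fold change was -1.26 (SE 0.15, adjusted p = 2.64e-05). The row of EIF2B5 spans 565 kb (chr2:108351511-108916999) in the deposited table, against a median of 20.2 kb for members with a position. It may therefore take reads of other genes, and the row of EIF4G1 (chr2:108710622-108732101), a member described below, lies inside it. EIF2B4, the delta subunit, had a log2 fold change of -1.49 (SE 0.17, adjusted p = 2.69e-05). Smaller differences were found for the other two regulatory subunits, EIF2B2 (beta) at -0.71 (SE 0.19, adjusted p = 0.00567) and EIF2B1 (alpha) at -0.45 (SE 0.16, adjusted p = 0.0287). Summing the UA libraries left 3 of the 5 called, and EIF2B2 and EIF2B1 were not (adjusted p = 0.192 and 0.380). EIF2B1 also lost its call when any single UA library or WT replicate 3 was left out (adjusted p up to 0.121).

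Of the 4 eIF2 kinases, 2 were higher in UA and none was lower, against 34.6% higher and 31.4% lower over all genes. EIF2AK3 (PERK, ENSMMUG00000009254), the kinase of the endoplasmic reticulum stress response, had 170.4, 157 and 150.2 CPM in the UA colonies, against 16.5, 31.3 and 26.8 CPM in the WT colonies. The lowest UA value stood far above the highest WT value, and the log2 fold change was 2.69 (SE 0.23, adjusted p = 4.01e-06), a level 6.44-fold higher. EIF2AK4 (GCN2), which senses uncharged tRNA, had 78.3, 83.3 and 87.7 CPM in the UA colonies, against 62.9, 58.6 and 50.7 CPM in the WT colonies. The groups did not overlap and the log2 fold change was 0.53 (SE 0.16, adjusted p = 0.0135). Its call was lost with the UA libraries summed (adjusted p = 0.276) and without UA replicate 2 or 3 (adjusted p = 0.0516 and 0.0648). The ratio of EIF2AK3 to EIF2AK4 counts was 2.18, 1.88 and 1.71 in the UA colonies, against 0.263, 0.533 and 0.528 in the WT colonies. EIF2AK1 (HRI), which senses haem, had 76.7, 64.4 and 60.5 CPM in the UA colonies, against 28.3, 67.3 and 59.7 CPM in the WT colonies, and EIF2AK2 (PKR), which senses double-stranded RNA, had 41.4, 43.2 and 40.8 CPM in the UA colonies, against 23.1, 53.3 and 53.2 CPM in the WT colonies. For both, WT replicate 1 was the lowest of the 6 libraries, the groups overlapped, and neither was called (log2 fold change 0.38 (SE 0.28, adjusted p = 0.250) for EIF2AK1 and -0.04 (SE 0.29, adjusted p = 0.903) for EIF2AK2).

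The group for start-codon scanning and subunit joining moved in both directions, with 2 of 8 higher, 5 lower and 1 not called. The lower ones include EIF6, which prevents joining, and EIF1AD, which is grouped here by its likeness to eIF1A. Over all genes tested, 34.6% were called higher and 31.4% lower. EIF5B, the GTPase that joins the large subunit, had 40.0, 38.0 and 30.9 CPM in the UA colonies, against 201, 126 and 120.4 CPM in the WT colonies, and its log2 fold change was -2.04 (SE 0.23, adjusted p = 2.11e-05). EIF5, the GTPase-activating protein of eIF2, had 796, 891 and 868 CPM in the UA colonies, against 653, 539 and 464 CPM in the WT colonies, and its log2 fold change was 0.62 (SE 0.16, adjusted p = 0.00443). Neither gene's groups overlapped, EIF5B being lower and EIF5 higher in every UA colony. The ratio of EIF5 to EIF5B counts was 19.9, 23.5 and 28.1 in the UA colonies, against 3.25, 4.28 and 3.86 in the WT colonies. EIF6, which keeps free large subunits from joining, had 129.7, 137 and 138 CPM in the UA colonies, against 602, 381 and 427 CPM in the WT colonies, and its log2 fold change was -1.80 (SE 0.18, adjusted p = 1.20e-05). Here too all UA values lay below the WT values.

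The near-identical pair of eIF1A genes, which promote scanning, was lower in UA. EIF1AY, on the Y chromosome (chrY:5853452-5869988), had 49.0, 49.5 and 39.9 CPM in the UA colonies, against 213, 118 and 132 CPM in the WT colonies, and its log2 fold change was -1.74 (SE 0.23, adjusted p = 7.14e-05). EIF1AX, on the X chromosome, had 41.3, 38.4 and 44.3 CPM in the UA colonies, against 84.4, 70.8 and 61.0 CPM in the WT colonies, and its log2 fold change was -0.80 (SE 0.18, adjusted p = 0.00236). In neither gene did the groups overlap, but reads of the pair may be split between the rows by the counting, so their separate sizes are uncertain. EIF1AD, a protein with an eIF1A-like domain, was also lower, at -1.26 (SE 0.22, adjusted p = 0.000407). EIF1, which guards the choice of start codon, was not called, at 0.19 (SE 0.15, adjusted p = 0.287), and its copy EIF1B was higher, at 0.91 (SE 0.19, adjusted p = 0.00132). EIF1 has a second row with 13823 counts, against 43089 in the row used, and its log2 fold change was -0.21 (adjusted p = 0.347). When the UA libraries were summed, EIF1AX and EIF5 lost their calls (adjusted p = 0.121 and 0.167), leaving 1 higher and 4 lower of the 8.

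**Figure D2:**
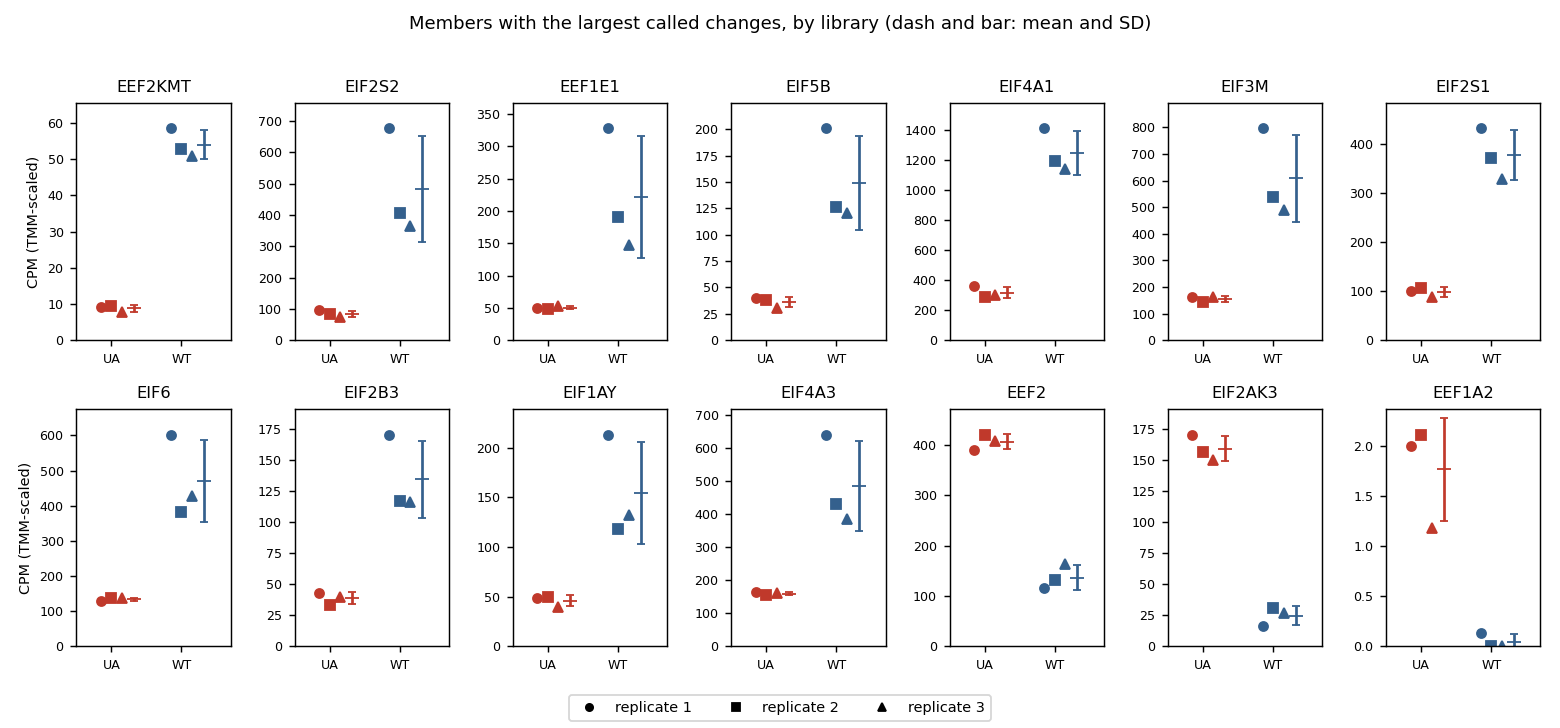
Level in each library (TMM-scaled CPM, y axes from 0) of the 14 members with the largest called changes, UA left and WT right in each panel; symbols mark the replicate number, and dashes with bars the mean and SD of 3 libraries. In every panel the UA points lie all below or all above the WT points, and in every panel of a lower member the highest WT point is replicate 1.

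Most subunits of eIF3, the scaffold that holds the initiation complex on the small subunit, were lower in UA. Of the 13, 9 were lower, 2 higher and 2 not called, against 31.4% lower and 34.6% higher over all genes. EIF3M (ENSMMUG00000009026, chr14:33285873-33305143), a PCI-domain subunit, had 161, 143 and 161 CPM in the UA colonies, against 796, 537 and 490.4 CPM in the WT colonies, and its log2 fold change was -1.97 (SE 0.19, adjusted p = 9.28e-06). EIF3L, another PCI-domain subunit, had 605, 587 and 585 CPM in the UA colonies, against 473, 483 and 473 CPM in the WT colonies, and its log2 fold change was 0.31 (SE 0.13, adjusted p = 0.0463). The 2 genes went opposite ways without overlap of the groups in either, and the ratio of EIF3M to EIF3L counts was 0.266, 0.243 and 0.275 in the UA colonies, against 1.68, 1.11 and 1.04 in the WT colonies. The other PCI-domain subunits were EIF3K at -1.46 (SE 0.20, adjusted p = 8.73e-05), EIF3E at -1.06 (SE 0.18, adjusted p = 0.000424), EIF3A, the largest subunit, at 0.09 (SE 0.13, adjusted p = 0.545), and a row deposited as EIF3CL at -1.22 (SE 0.15, adjusted p = 4.03e-05). The table of gene names gives the EIF3CL row as EIF3C, so the 2 cannot be told apart there. Of the pair of MPN-domain subunits, EIF3F was higher, at 0.55 (SE 0.17, adjusted p = 0.0162), and EIF3H was not called, at 0.07 (SE 0.19, adjusted p = 0.772). The subunits around the mRNA entry channel were all lower, with EIF3B at -1.28 (SE 0.15, adjusted p = 2.40e-05), EIF3I at -1.10 (SE 0.14, adjusted p = 6.04e-05) and EIF3G at -1.02 (SE 0.19, adjusted p = 0.000804). EIF3J, a loosely held subunit, was lower at -1.31 (SE 0.17, adjusted p = 6.53e-05), and EIF3D, which can bind the cap, at -0.68 (SE 0.15, adjusted p = 0.0017).

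Both higher eIF3 calls were close to the threshold. EIF3F had 208, 204 and 202 CPM in the UA colonies, against 176, 122 and 119 CPM in the WT colonies, and EIF3L, as given above, also had no overlap. Each lost its call in 5 of the 6 fits that left out 1 library (adjusted p up to 0.0633 for EIF3F and 0.171 for EIF3L), and kept it without WT replicate 1. In the fit with summed UA libraries, 7 subunits were lower and none higher, and EIF3D, EIF3F, EIF3G and EIF3L were not called (adjusted p = 0.150, 0.211, 0.0615 and 0.460).

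**Figure D3:**
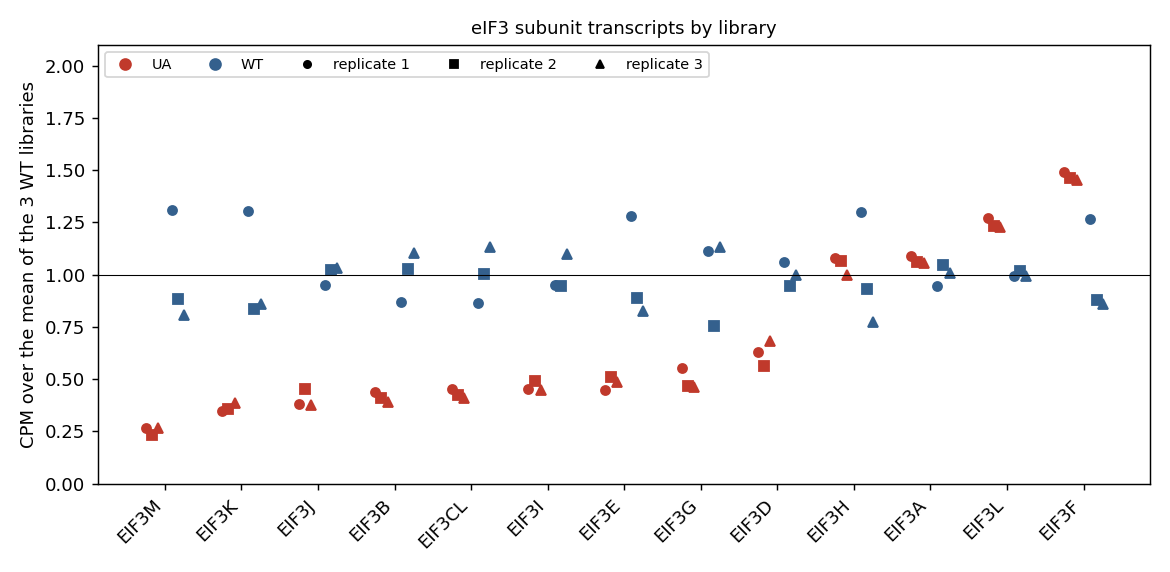
Level of each eIF3 subunit transcript in each library, divided by the mean of the 3 WT libraries (y axis from 0), with UA in red left of WT in blue and symbols for the replicate number. The UA points of 9 subunits lie below all WT points, from EIF3M to EIF3D; those of EIF3A, EIF3L and EIF3F lie above them, and those of EIF3H fall among them.

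In the group of cap-binding proteins, helicases and scaffolds, EIF4E, EIF4E2, EIF4A1 and EIF4A3 were lower in UA. All 3 scaffolds of the EIF4G family were higher. The group follows the symbols and is wider than the eIF4F complex, as it holds EIF4A3, EIF4E2 and EIF4G2, described below. Of 11 tested members, 5 were higher, 4 lower and 2 not called, where 34.6% of all genes were higher and 31.4% lower. EIF4A1 (ENSMMUG00000013499, chr16:7551749-7558614), the main helicase, had 359, 288 and 304 CPM in the UA colonies, against 1413, 1192 and 1142 CPM in the WT colonies, and its log2 fold change was -1.98 (SE 0.15, adjusted p = 2.07e-06). EIF4A2, its close paralogue, had 250.4, 263 and 259 CPM in the UA colonies, against 215, 222 and 200.1 CPM in the WT colonies, with a log2 fold change of 0.28 (SE 0.13, adjusted p = 0.0902). All UA colonies lay below the WT colonies for EIF4A1 and above them for EIF4A2, which was not called. The ratio of EIF4A1 to EIF4A2 counts was 1.43, 1.10 and 1.17 in the UA colonies, against 6.57, 5.36 and 5.71 in the WT colonies. EIF4A3, a helicase of the exon junction complex, had 164, 154 and 161 CPM in the UA colonies, against 639.9, 431 and 386 CPM in the WT colonies, without overlap. Its log2 fold change was -1.60 (SE 0.19, adjusted p = 3.60e-05).

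EIF4E, the cap-binding protein, had 99.5, 105 and 100.1 CPM in the UA colonies, against 182, 252 and 218 CPM in the WT colonies, and its log2 fold change was -1.10 (SE 0.16, adjusted p = 0.000125). EIF4E2 (4EHP), a cap-binding protein that does not bind eIF4G and represses translation, was lower at -1.47 (SE 0.16, adjusted p = 1.92e-05). EIF4E3 was higher at 0.98 (SE 0.25, adjusted p = 0.00503), with 12.6 to 16.7 CPM in UA and 6.82 to 8.41 CPM in WT. The scaffold EIF4G1 had 263, 282 and 274 CPM in the UA colonies, against 155, 148 and 154 CPM in the WT colonies, and its log2 fold change was 0.84 (SE 0.13, adjusted p = 0.000236). The groups did not overlap for any of these genes, and the ratio of EIF4G1 to EIF4E counts was 2.64, 2.69 and 2.74 in the UA colonies, against 0.848, 0.586 and 0.703 in the WT colonies. Its paralogue EIF4G3 was higher at 1.38 (SE 0.17, adjusted p = 4.65e-05). The row of EIF4G1 lies inside the span of the EIF2B5 row, and how reads there were assigned is not known.

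EIF4G2 (DAP5), a scaffold that lacks the eIF4E-binding part, had 2506, 2585 and 2458 CPM in the UA colonies, against 889, 1787 and 1791 CPM in the WT colonies. All UA values lay above the WT values, the log2 fold change was 0.76 (SE 0.23, adjusted p = 0.014), and WT replicate 1 held less of it than the other two WT colonies. Without that library the log2 fold change was 0.50 (adjusted p = 1.77e-07). Over all 6 libraries the ratio of EIF4G2 to EIF4G1 counts overlapped between the groups, at 9.53, 9.18 and 8.96 in the UA colonies, against 5.75, 12.1 and 11.7 in the WT colonies. EIF4B, which activates eIF4A, was higher at 1.29 (SE 0.17, adjusted p = 7.35e-05), and EIF4H, a related helper, was not called, at -0.22 (SE 0.13, adjusted p = 0.141). Summing the UA libraries left 3 higher and 4 lower, and EIF4G2 and EIF4E3 were not called (adjusted p = 0.115 and 0.127).

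**Figure D4:**
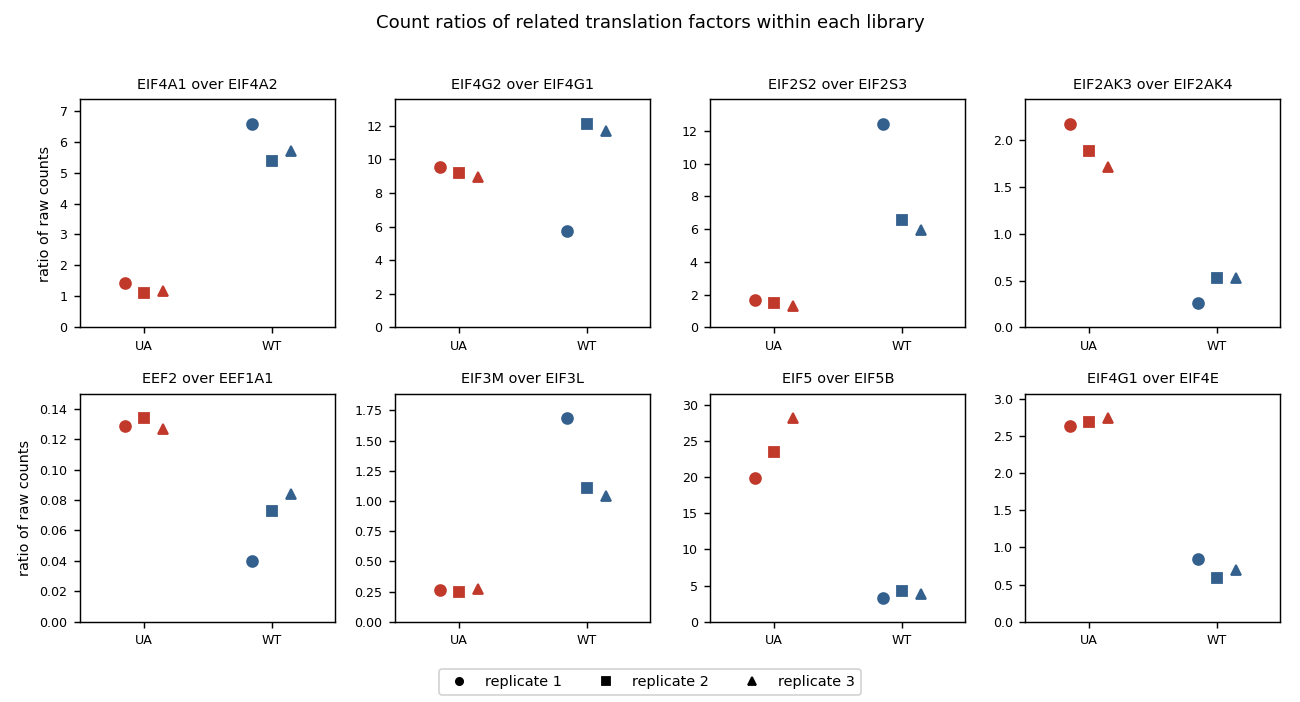
Ratio of raw counts of related translation factors within each library (y axes from 0), UA left and WT right in each panel, with symbols for the replicate number. The groups are apart in 7 panels and overlap for EIF4G2 over EIF4G1, where WT replicate 1 at 5.75 lies below all UA values and the other two WT values above them.

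Of the proteins that hold eIF4E away from eIF4G, 2 had rows here. EIF4EBP3 had 339, 328 and 309 CPM in the UA colonies, against 186, 241 and 211 CPM in the WT colonies, without overlap, and its log2 fold change was 0.61 (SE 0.15, adjusted p = 0.00352). Its row spans 139.9 kb (chr6:138187536-138327448), and in human EIF4EBP3 shares a read-through transcript with ANKHD1, so these counts may not be those of the repressor alone. EIF4ENIF1 (4E-T), which takes eIF4E into the nucleus and to P-bodies, was not called, at -0.21 (SE 0.22, adjusted p = 0.416). Neither was called with the UA libraries summed (EIF4EBP3 adjusted p = 0.137). EIF4EBP1 and EIF4EBP2 were not analysed here.

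EIF5A, the hypusine-carrying factor that helps stalled ribosomes form peptide bonds, had 34.4, 35.9 and 34.6 CPM in the UA colonies, against 67.5, 61.0 and 72.2 CPM in the WT colonies. Every UA value was below every WT value, and the log2 fold change was -0.94 (SE 0.17, adjusted p = 0.000491), which was not called with the UA libraries summed (adjusted p = 0.075). Its paralogue EIF5A2, at 2.66 to 4.13 CPM in UA and 3.83 to 5.07 CPM in WT, overlapped and was not called, at -0.36 (SE 0.38, adjusted p = 0.429).

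Among the elongation factors, EEF2 was called higher in UA under each of the 17 alternatives, while the calls of EEF1A1, an eEF1A gene, and EEF1B2, an eEF1B subunit, depended on single libraries. EEF2 (ENSMMUG00000022767, chr19:4000726-4014075), the translocase, had 390.1, 420.2 and 408 CPM in the UA colonies, against 115, 131 and 163 CPM in the WT colonies. The UA values stood well above all WT values, and the log2 fold change was 1.57 (SE 0.16, adjusted p = 1.27e-05), a level 2.98-fold higher. EEF2K, the kinase that inactivates eEF2, had 20.3, 22.9 and 21.7 CPM in the UA colonies, against 15.9, 21.7 and 24.5 CPM in the WT colonies, overlapped and was not called, at 0.07 (SE 0.23, adjusted p = 0.805). EEF1A1, the main form of eEF1A, had 3031, 3143 and 3218 CPM in the UA colonies, against 2869, 1793 and 1945 CPM in the WT colonies, and its log2 fold change was 0.51 (SE 0.18, adjusted p = 0.0268). The groups did not overlap, but WT replicate 1 stood close to the UA colonies and well above the other two WT colonies. Without it the log2 fold change was 0.75 (adjusted p = 2.36e-09), the call was lost when any other library was left out (adjusted p up to 0.0957), and processed copies of this gene could share its reads. The ratio of EEF2 to EEF1A1 counts was 0.129, 0.134 and 0.127 in the UA colonies, against 0.0401, 0.0731 and 0.0839 in the WT colonies.

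EEF1A2, the form of eEF1A known from muscle and neurons, had 67 counts over the UA libraries and 3 over the WT libraries, all of the WT counts in replicate 1. The ratio scaled to the TMM-adjusted library sizes was 27.7, with an exact 95% counting interval of 9.09 to 138 that covers counting error only. EEF1A2 was called higher (adjusted p = 0.0014), but its row passed the filter on low counts only through the UA libraries. The call is therefore no separate support for a difference. Its fitted fold change depends on the prior count, and with the UA libraries summed the log2 fold change was 4.91.

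EEF1E1, a protein of the multi-tRNA synthetase complex that resembles eEF1B subunits, had 49.2, 48.5 and 52.4 CPM in the UA colonies, against 328, 191 and 147 CPM in the WT colonies. No WT colony came near the UA colonies, WT replicate 1 was the highest, and the log2 fold change was -2.15 (SE 0.26, adjusted p = 4.11e-05). Of the eEF1B subunits, which recharge eEF1A, EEF1B2 was lower at -0.44 (SE 0.18, adjusted p = 0.049) and EEF1G, the gamma subunit, was not called, at -0.32 (SE 0.18, adjusted p = 0.131). The call of EEF1B2 was lost without any single UA library or without WT replicate 3 (adjusted p up to 0.130), and its log2 fold change without WT replicate 1 was -0.22 (adjusted p = 0.0248). A row deposited as EEF1D was lower at -1.21 (SE 0.17, adjusted p = 9.58e-05), but the table of gene names calls it PYCR3, an enzyme of proline synthesis, so its identity is uncertain. In the fit with summed UA libraries, EEF1A1, EEF1A2 and EEF1B2 were not called (adjusted p = 0.287 for EEF1A1 and 0.396 for EEF1B2), leaving EEF1E1 and EEF1D lower.

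All 3 elongation factor methyltransferases were lower in UA, where 31.4% of all genes were called lower. EEF2KMT (ENSMMUG00000029240, chr20:5097157-5112890), which methylates a lysine of eEF2, had 9.16, 9.52 and 7.68 CPM in the UA colonies, against 58.6, 52.9 and 50.8 CPM in the WT colonies. The WT colonies stood close together far above the UA colonies, and the log2 fold change of -2.61 (SE 0.20, adjusted p = 1.84e-06), a level 6.12-fold lower, was the largest decrease among the members. EEF1AKMT2, which methylates eEF1A, was lower at -1.38 (SE 0.33, adjusted p = 0.00338). EEF1AKMT1, another eEF1A methyltransferase, had 36.9, 33.2 and 33.1 CPM in the UA colonies, against 68.4, 54.4 and 56.2 CPM in the WT colonies, without overlap. Its log2 fold change was -0.80 (SE 0.18, adjusted p = 0.00218), and with the UA libraries summed it was not called (adjusted p = 0.150).

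Genes that work with these factors were read from 6 companion lists in the same fit, again as log2 fold changes, where 34.6% of all genes were called higher and 31.4% lower. In termination and recycling, 5 of 7 tested genes were lower and none higher. GSPT2, a form of the release factor eRF3, had a log2 fold change of -2.13 (SE 0.28, adjusted p = 6.62e-05), PELO, a rescue factor for stalled ribosomes, -1.67 (SE 0.23, adjusted p = 8.41e-05), GSPT1, the other eRF3, -0.90 (SE 0.15, adjusted p = 0.000317), and ABCE1, which splits the subunits after termination, -0.78 (SE 0.17, adjusted p = 0.00173). ETF1, the release factor eRF1, was not called, at 0.21 (SE 0.14, adjusted p = 0.211). With the UA libraries summed, GSPT2 and PELO kept their calls, and MCTS1, GSPT1 and ABCE1 did not.

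In the list for elongation factor modifiers, 7 of 10 were lower and none higher. The list includes VCPKMT, a methyltransferase of VCP and not of an elongation factor, which was not called (-0.35). DPH2 at -2.21 (SE 0.17, adjusted p = 1.69e-06) and DPH5 at -1.50 (SE 0.19, adjusted p = 4.35e-05) belong to the pathway that makes diphthamide, the modified histidine of eEF2. DHPS at -1.27 (SE 0.18, adjusted p = 0.000105) carries out the first step in making the hypusine of eIF5A, and METTL13 at -1.25 (SE 0.19, adjusted p = 0.000151) methylates eEF1A. DOHH, listed for the last step to hypusine, was not analysed here. Of the 7, 5 were still lower with the UA libraries summed. Of the mitochondrial translation factors, 7 of 11 were lower and 2 higher, with TSFM, the exchange factor of mitochondrial EF-Tu, at -2.90 (SE 0.27, adjusted p = 5.84e-06) and TUFM, EF-Tu itself, at -1.22 (SE 0.14, adjusted p = 2.04e-05). MTRF1L at 0.75 (SE 0.19, adjusted p = 0.00492) and GUF1 at 0.59 (SE 0.20, adjusted p = 0.022) were the higher ones, and neither was called with the UA libraries summed, where 4 genes were lower.

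Of 15 tested regulators of the cap and of poly(A), 5 were higher and 6 lower. PDCD4, an inhibitor that binds eIF4A, had 385, 396 and 364 CPM in the UA colonies, against 75.8, 95.1 and 77.5 CPM in the WT colonies. Every UA colony lay above the WT colonies, and the log2 fold change was 2.21 (SE 0.15, adjusted p = 1.05e-06), opposite in sign to that of EIF4A1. MKNK2, a kinase of eIF4E, was higher at 2.54 (SE 0.32, adjusted p = 4.87e-05), and its relative MKNK1 was lower at -1.05 (SE 0.20, adjusted p = 0.000776). DDX3X, a helicase that aids scanning, was higher at 2.12 (SE 0.30, adjusted p = 0.000108), and DHX29, another scanning helicase, was lower at -1.24 (SE 0.21, adjusted p = 0.000427). NCBP2, of the nuclear cap-binding complex, was lower at -1.67 (SE 0.18, adjusted p = 1.46e-05), and ABCF1, a partner of eIF2, at -1.42 (SE 0.14, adjusted p = 9.34e-06). PABPC1, the main cytoplasmic poly(A)-binding protein, was higher at 0.42 (SE 0.15, adjusted p = 0.0274) and not called with the UA libraries summed, where 3 genes were higher (PDCD4, MKNK2 and DDX3X) and 3 lower.

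Of 12 tested genes of the integrated stress response, the programme that follows phosphorylation of eIF2, 5 were higher and 4 lower. PPP1R15A (GADD34), which brings phosphatase to phosphorylated eIF2, had 394, 390.0 and 383 CPM in the UA colonies, against 61.2, 51.7 and 60.0 CPM in the WT colonies. PPP1R15B (CReP), its constitutive relative, had 169, 164 and 159 CPM in the UA colonies, against 19.4, 35.9 and 30.0 CPM in the WT colonies. All UA values of both genes were above all WT values, and the log2 fold changes were 2.75 (SE 0.15, adjusted p = 1.82e-07) for PPP1R15A and 2.54 (SE 0.22, adjusted p = 4.47e-06) for PPP1R15B. The transcription factor ATF3 at 3.02 (SE 0.26, adjusted p = 4.26e-06) and the pseudokinase TRIB3 at 1.08 (SE 0.19, adjusted p = 0.000516) were also higher. ASNS, the asparagine synthetase, was lower at -1.96 (SE 0.15, adjusted p = 1.84e-06), as was CHAC1, which degrades glutathione, at -2.19 (SE 0.57, adjusted p = 0.00559), and CEBPB, a transcription factor also used in myeloid differentiation, at -1.45 (SE 0.33, adjusted p = 0.00238). NUPR1 was lower at -1.41 (SE 0.45, adjusted p = 0.017) and not called without WT replicate 1 (-0.77, adjusted p = 0.135). Summing the UA libraries left 4 higher and ASNS alone lower. ATF4 was not analysed here, and the phosphorylation of eIF2 was not measured.

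In the list for mTORC1, the kinase complex that acts on the eIF4E-binding proteins and S6 kinases, 3 of 9 were higher and 3 lower. TSC2, its inhibitor, at 1.54 (SE 0.21, adjusted p = 9.15e-05), its subunit RPTOR at 1.45 (SE 0.21, adjusted p = 0.000114) and its kinase MTOR at 0.81 (SE 0.21, adjusted p = 0.00634) were higher. Its subunit MLST8 at -1.08 (SE 0.18, adjusted p = 0.00035) and the kinases RPS6KB1 at -0.76 (SE 0.16, adjusted p = 0.00133) and RPS6KA3 at -0.67 (SE 0.21, adjusted p = 0.0149) were lower. RPS6KA3 and RPS6KA1, the latter not called, belong to a kinase family other than that of the S6 kinases on which mTORC1 acts. With the UA libraries summed, TSC2 and RPTOR remained higher and MLST8 lower.

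WT replicate 1 stood apart from the other two WT colonies in many of these transcripts. It was the highest WT library in 23 of the 32 members lower in UA and the lowest WT library in 7 of the 15 members higher in UA. Its level over the mean of the other two WT libraries ran from 0.433 to 1.94 over the members. In the fit without it, 7 members were called that were not called with it. With their log2 fold changes, these were EIF1 (0.33, adjusted p = 0.000331), EIF2A (0.30, adjusted p = 0.0228), EIF3H (0.31, adjusted p = 0.00899) and EIF4A2 (0.29, adjusted p = 0.00385) as higher. EIF2AK2 (-0.34, adjusted p = 0.032), EIF4ENIF1 (-0.39, adjusted p = 0.0281) and EIF4H (-0.23, adjusted p = 0.00368) were called lower. No call among the members was lost without it. Without that library the log2 fold change was -2.17 for EIF2S2, -1.75 for EEF1E1, -1.72 for EIF3M and -2.54 for EEF2KMT, each nearer to 0 than with all 6 libraries. Other decreases were larger without it, as for EIF3B (-1.36, against -1.28 with all 6), EIF2B5 (-1.32 against -1.26) and EIF4E (-1.21 against -1.10).

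**Figure D5:**
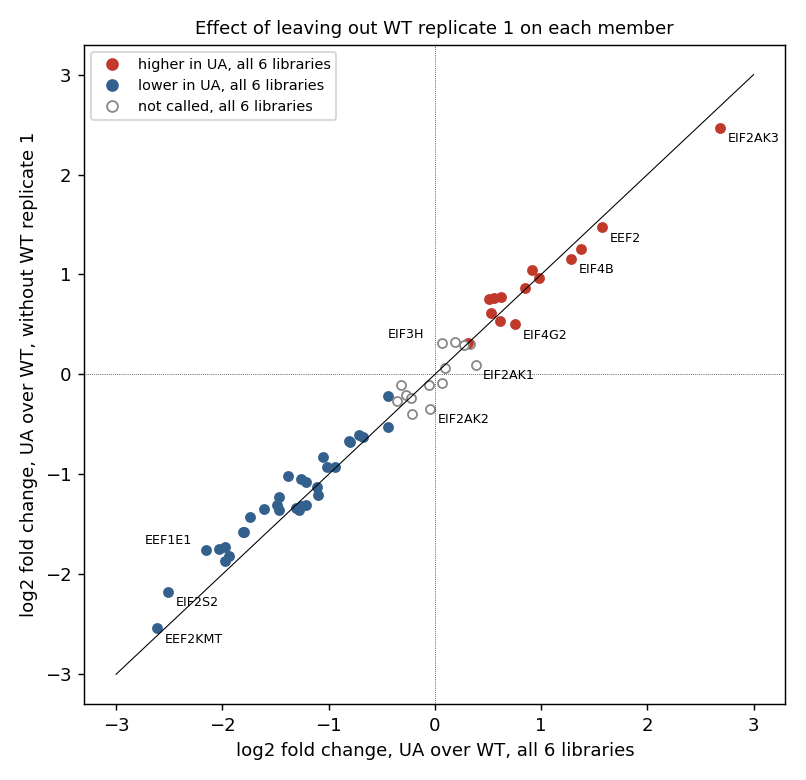
Log2 fold change of UA over WT for 60 members from the fit without WT replicate 1 (y axis) against that from all 6 libraries (x axis), with the line of equality; EEF1A2, with 3 WT counts, is left out. Points of the largest decreases lie above the line, as EIF2S2 at -2.17 against -2.51, and no called member changes sign.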

How the data were processed

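Per the labels' protocols, cDNA of each of the 6 colonies came from the SMART-Seq V4 kit and libraries from Nextera XT. This chemistry keeps neither strand nor molecule identity. Reads of antisense and overlapping genes therefore cannot be told apart by strand, and PCR copies may be counted as reads. Per the submitters' processing notes, the genome build was Mmul_8.0.1 and bcl2fastq was used. The aligner and counter were not given in the sources used here. Raw counts per gene, without normalization, were deposited. The authors also deposited a differential expression table with, per the file headers, the mean normalized count (a signal), the fold change on the log2 scale and its error, a test statistic (a score) and p-values. Symbols came from the row name for 2 members, the deposited table for 35 and a table of gene names for 25.

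Counts were filtered with filterByExpr (minimum count 10, total 15), scaled by TMM (factors 0.86 to 1.07) and tested with edgeR 4.0.16 in R 4.3.3, with genotype as the only term, robust=TRUE and Benjamini-Hochberg adjustment over 13768 genes. In simulated counts of 13393 genes, 100 were changed by 1 and 100 by 2 on the log2 scale, far fewer than were called here. The test recovered 48% and 88% of these, with 3 false calls among 139. Adjusted p under 0.05 was called. CPM values are TMM-scaled, and levels are not per length. The 17 alternatives include DESeq2 1.42.0, limma 3.58.1 and each library left out in turn. Full values are given for TET2, the 14 called members with the largest change and the member with the highest mean level in each role. The members and lists were chosen with earlier results of these data known. Sequences were not used here.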

Additional observations from a re-analysis of the deposited data

How the results depend on the processing

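Over the 17 alternatives, no called member or companion gene changed direction: 959 of 1035 member values kept their call, 56 lost it and 20 gained one, and for companion genes 1035 of 1102 kept it, 56 lost it and 11 gained one. Summing the UA libraries to 1 sample, which leaves 4 samples, took away 17 member calls, more than any other alternative, and gave 3014 genes higher and 2410 lower over all genes (4770 and 4321 with 6 libraries), 6 members higher (15 with 6 libraries), and 9 companion genes higher and 16 lower (15 and 32 with 6 libraries). Leaving out 1 library at a time gave 4133 to 5371 genes higher and 3764 to 4578 lower over all genes, 11 to 19 members higher and 30 to 35 lower, and 12 to 15 companion genes higher and 27 to 34 lower. Scaling by library size alone shifted the median of all genes by 0.16 on the log2 scale and gave 18 members higher and 30 lower. With a replicate block, 14 members were higher and 32 lower, with EIF3L lost (adjusted p = 0.0837). Same-numbered colonies had deviations from their group means that correlated at 0.029, 0.040 and 0.017, and other pairs at -0.031 to 0.004. The UA libraries differ little from each other, so these values cannot decide whether the numbers pair the colonies. EEF1A2 rests on 3 WT counts, and why EIF4E1B had 0 counts was not tested.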

Other observations

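Known in human cells for a 5′ terminal oligopyrimidine tract, 10 of the members form a set chosen after the values were seen (EEF1A1, EEF1A2, EEF1B2, EEF1D, EEF1G, EEF2, EIF3E, EIF3F, EIF3H and EIF4B). Messages of this class are known to be translated under the control of mTORC1. Of the 10, 5 were higher in UA, 3 lower and 2 not called, with a median log2 fold change of 0.29, where 34.6% of all genes were higher and 31.4% lower. The higher ones include EEF1A2, which passed the filter on low counts only through the UA libraries. The lower ones include the row deposited as EEF1D, whose identity is uncertain. EEF1A1, EIF3F and EEF1B2 lost their calls in most of the fits that left out 1 library. Of the other 51 tested members, 10 were higher, 29 lower and 12 not called, with a median of -0.80. Without WT replicate 1 the 10 had 6 higher and 3 lower, and the other 51 had 13 higher and 32 lower. With the UA libraries summed, the 10 had 2 higher and 2 lower and the other 51 had 4 higher and 22 lower, where 18.6% of all genes were higher and 14.9% lower. Ribosomal protein transcripts, the main class with this tract, took 1.53% to 1.58% of all counts in UA and 2.01% to 2.76% in WT, lower in every UA library. The difference between the sets was not tested, and the tract was not looked for in these genes here.

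The authors' deposited table lists 56 members, 53 with a positive and 3 with a negative log2 fold change, from -6.48 to 5.55. In the authors' deposited table the groups compared are not named. The lowest is EIF4E1B, which has a mean of 10.2 normalized counts in the authors' deposited table and 0 counts in all 6 libraries. The authors' deposited table therefore cannot come from these 6 count columns alone, and its signs are not set against UA over WT here.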
